A study of Mus musculus with 8 samples.

Results

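The tripartite motif (TRIM) family was examined in RNA-seq libraries of mouse embryos that had been injected at the zygote stage to degrade the zona pellucida protein ZP3. Members were taken as the genes whose symbol begins with Trim followed by a digit, which gave 69 of the 52636 identifiers in the count table, 26966 of which carry a symbol. Trim21 is the mRNA that was injected and is therefore described apart from the other 68 members. All embryos were wild-type and of the background B6C3F1 x CD1. In ZP3 Trim-away (3 libraries), zygotes received mRNA for mCherry-Trim21, Oregon Green dextran beads and an antibody against ZP3 at 15 h post-hCG, and the labels place these embryos at E0.5. In Trim21 overexpression (4 libraries) the antibody was replaced by its buffer, and in the non-manipulated group (1 library) nothing was injected; both groups are labelled E1.5. The paper's text gives the numbers of libraries of the injected groups differently, and the labels were followed here. All groups were cultured in KSOM with amino acids and RNA was extracted on the day after injection. Each library came from a pool of embryos, and nothing in the labels says whether the pools of a group came from separate collections, so p-values measure the spread between these libraries, which may be technical. Both injected groups were analysed 24 h after injection. By the paper's account the zygotes with ZP3 knocked down had stopped at the pronuclear stage by then, whereas its injected controls had cleaved. The ZP3 Trim-away embryos carry an earlier stage label than both other groups. The effect of degrading ZP3 and that of the stage therefore cannot be told apart. In pooled embryos, fewer cells of a type and less RNA per cell cannot be told apart either.

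TRIM proteins carry a RING finger, B-box zinc fingers and a coiled coil, followed by a C-terminal part that differs between members and usually binds the target. Most act as ubiquitin ligases. TRIM21 is a cytosolic receptor for the constant part of antibodies and sends antibody-bound proteins to the proteasome, which is the basis of the Trim-away method. In early embryos TRIM28 joins KRAB zinc finger proteins to silence retroelements and protect imprints, and the Trim43 genes are known for a burst of expression in the preimplantation embryo.

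Total counts ranged from 13228428 to 15379933 in the ZP3 Trim-away libraries and from 17615416 to 22427747 in the Trim21 overexpression libraries, with 22248022 in the non-manipulated library. Expression is given as CPM, counts scaled to a common library size after TMM scaling, and a gene without a count may have been present at up to 0.127 to 0.251 CPM (3 counts, counting error only). The libraries were checked against cell type markers. Markers of oocytes and early embryos summed to 5538 to 10433 CPM in ZP3 Trim-away, against 1354 to 2154 CPM in Trim21 overexpression, and 4 of 9 rose by the test described below (Nlrp4f, Bmp15, Nlrp14 and Nlrp5). Markers of cumulus cells summed to 13.9 to 86.2 CPM in ZP3 Trim-away and 1.27 to 38.7 CPM in Trim21 overexpression. Amh, Fshr, Inha and Ptx3 were at 0 in every library. Cyp19a1 had 1.01, 30.1 and 31.3 CPM in ZP3 Trim-away against 0, 0, 0 and 1.62 CPM in Trim21 overexpression (adjusted p = 0.205 by edgeR). Ptgs2, named after its values were seen, was counted only in ZP3 Trim-away replicate 2 (37.2 CPM) and Trim21 overexpression replicate 1 (17.6 CPM). The groups of Tnfaip6 and Star overlapped. Sperm markers summed to 96.6 to 186 CPM against 0.472 to 57.0 CPM, nearly all of it Odf2, and Tnp1 and Tnp2 were at 0. Oviduct markers summed to 40.7 to 260 CPM against 306 to 372 CPM, mostly Epcam except in ZP3 Trim-away replicate 1. Epcam had 4.94, 167 and 172 CPM in ZP3 Trim-away against 342, 317, 280 and 334 CPM in Trim21 overexpression. Krt18 went the other way on average, with 25.0, 56.1 and 73.5 CPM against 11.6, 0, 25.0 and 0 CPM. Neither passed (adjusted p = 0.377 for Epcam and 0.507 for Krt18 by edgeR). Blood markers summed to 2.01 to 35.03 CPM against 8.91 to 24.3 CPM, with Lyz2 and Hbb-bt at 0. The part of these markers in the results below was not tested.

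Trim21 was abundant in every Trim21 overexpression library but in only 1 of the 3 libraries labelled ZP3 Trim-away. Trim21 (ENSMUSG00000030966, GRCm38 chr7:102557921-102565486, minus strand) had 24727, 0 and 55 counts in ZP3 Trim-away replicates 1 to 3, 51829, 58348, 205653 and 15576 counts in Trim21 overexpression replicates 1 to 4 and 0 counts in the non-manipulated library. On the CPM scale these were 2071, 0 and 3.61 in ZP3 Trim-away, against 2425.5, 2752, 8689 and 937 in Trim21 overexpression. ZP3 Trim-away replicate 1 thus lay within the range of the Trim21 overexpression libraries, while replicates 2 and 3 lay far below it, next to the non-manipulated library. Replicates 2 and 3 thus had no or hardly any counts of the mRNA that their labels give as injected; all libraries are named by their labels here, and results that change when they are left out are given with and without them. The annotated gene is also counted with reads of the embryo's own Trim21, and the 2 sources are not separated in a count per gene.

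Among the genes of a library ranked by CPM, Trim21 was the 63rd in ZP3 Trim-away replicate 1, and it ranked 23rd, 23rd, 8th and 138th in Trim21 overexpression replicates 1 to 4. Its share of all counts was 0.187% in ZP3 Trim-away replicate 1, against 0.254%, 0.276%, 0.917% and 0.0884% in the 4 Trim21 overexpression libraries. Of the CPM of all 69 members, Trim21 made up 31.9%, 0% and 0.117% in ZP3 Trim-away and 50.7%, 56.2%, 75.9% and 31.2% in Trim21 overexpression. The Trim21 level differed 9.27-fold between the highest and the lowest Trim21 overexpression library, although all 4 were labelled alike. On log2 CPM (prior count 2) the group difference was -8.17, ZP3 Trim-away minus Trim21 overexpression, and an exact permutation test over the 35 ways to divide the 7 injected libraries gave a two-sided p of 0.0571, where the smallest possible p is 0.0286. On the CPM scale the means were 692 ± 1195 CPM in ZP3 Trim-away (SD, n = 3) and 3701 ± 3418 CPM in Trim21 overexpression (SD, n = 4), with an exact p of 0.143. The difference passed 0.05 on neither scale, and edgeR gave -2.38 on the log2 scale (SE 2.09, adjusted p = 0.602). Without ZP3 Trim-away replicate 1 the log2 difference was -12.07 (exact p = 0.0667, the smallest possible for the libraries left), and edgeR then called Trim21 (log2 fold change -11.02, adjusted p = 0.0206). With replicate 1 as the only ZP3 Trim-away library edgeR gave -0.83 (adjusted p = 0.620).

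**Figure D1:**
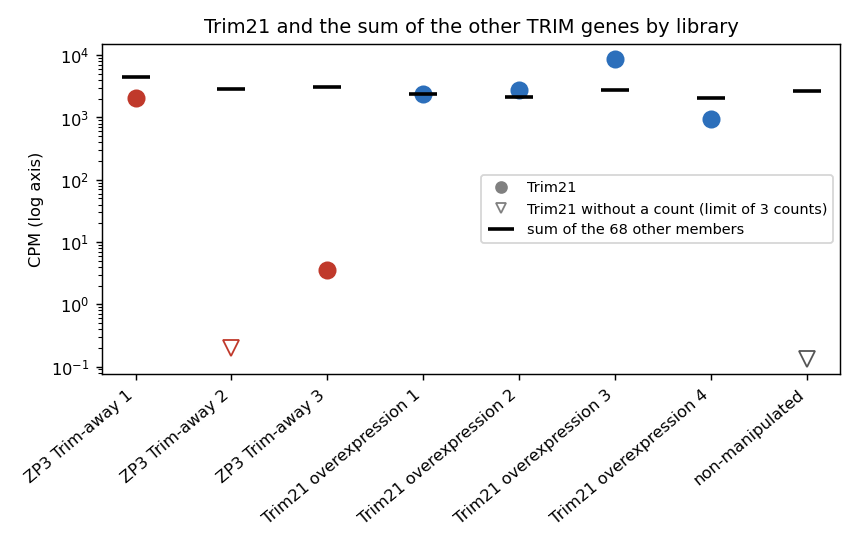
Trim21 level in each library (circles, CPM on a log axis; open triangles mark libraries without a count, drawn at the level of 3 counts) beside the summed CPM of the 68 other TRIM members (black bars). The 4 Trim21 overexpression libraries and ZP3 Trim-away replicate 1 lie between 937 and 8689 CPM, while the summed level of the other members spans only 2066 to 4428 CPM.

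The other 68 members were expressed at a narrower range of summed levels. Together they reached 4428, 2831 and 3080 CPM in ZP3 Trim-away, against 2362, 2141, 2755 and 2066 CPM in Trim21 overexpression, and 2637 CPM in the non-manipulated library. Each ZP3 Trim-away library was above each Trim21 overexpression library. Between 33 and 37 of the 68 members had a count in the ZP3 Trim-away libraries, against 35 to 39 in the Trim21 overexpression libraries and 37 in the non-manipulated one. Of all 69 members, 23 had a count in all 8 libraries, 34 in some of them and 12 in none. A library that lacked a member entirely was common, also for members with many counts elsewhere. Of the 46 members with at least 50 counts in some library, 23 (50%) had no count in another, beside 50.8% over all genes of the table.

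The question of the comparison was which TRIM genes differ in embryos labelled as depleted of ZP3. ZP3 Trim-away (n = 3) was compared with Trim21 overexpression (n = 4) with edgeR (quasi-likelihood), p-values were adjusted by Benjamini-Hochberg over the 13641 genes left by the filter on low counts, and genes with an adjusted p below 0.05 are the ones called. Fold changes, on the log2 scale, are ZP3 Trim-away over Trim21 overexpression. Of the 68 members 30 could be tested, and 3 of them were called (10%), while over all genes tested 6.9% were called. Trim30a and Trim61 rose, where 2.98% of all genes were called higher, and Trim43a fell, where 3.91% were called lower. The other 27 did not pass. Of the 30, 15 had a positive and 15 a negative fold change, with a median of -0.06, beside a median of -0.04 over all genes tested. The CPM of the groups did not overlap for 10 of the 30 (33.3%), 5 above and 5 below, while over all genes 28.5% did not overlap, 13.1% above and 15.4% below. These shares were close to those of all genes. At an unadjusted p under 0.05 there were 8 of the 30 members, 4 higher and 4 lower, beside 2905 of the 13641 genes tested. As Trim21 was nearly absent from 2 libraries, the test was also run with ZP3 Trim-away replicate 1 as the only library of its group, which takes its spread from the Trim21 overexpression libraries. This called 4 members, namely Trim33, Trim43a, Trim43b and Trim61, and 6.71% of all genes tested. Without replicate 1 the test called Trim30a and Trim43a, and 4.5% of all genes tested.

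**Figure D2:**
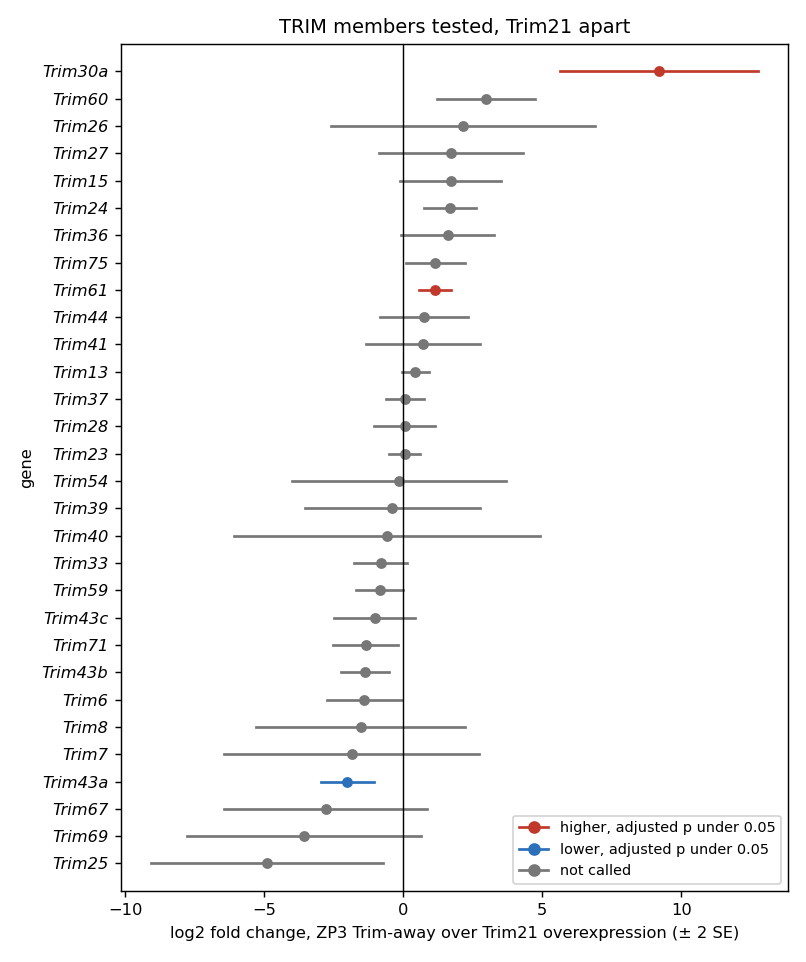
Log2 fold change of the 30 tested TRIM members besides Trim21, ZP3 Trim-away over Trim21 overexpression, with bars of 2 SE to each side. Trim30a (9.21) and Trim61 (1.15) were called higher and Trim43a (-2.01) lower, while the 27 members in gray did not pass.

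Trim30a was found in all ZP3 Trim-away libraries and almost nowhere else. This gene, in macrophages a brake on NF-kB signalling, lies at chr7:104409025-104465193 on the minus strand. It had 226, 323 and 327 counts in ZP3 Trim-away, against 0, 0, 0 and 2 counts in Trim21 overexpression and 0 in the non-manipulated library, which was 18.9, 21.03 and 21.5 CPM against 0 CPM in 3 libraries and 0.120 CPM in Trim21 overexpression replicate 4. Every ZP3 Trim-away library was thus at a similar level, with or without Trim21 counts, and the other groups were at or next to 0. The summed counts were 876 and 2, a ratio of 854 after allowing for library size, with a 95% counting interval of 236 to 7060 that does not cover the spread between libraries. The fitted log2 fold change was 9.21 (SE 1.78, adjusted p = 0.0192 by edgeR), which depends on the prior count. Its call was lost without ZP3 Trim-away replicate 2 (adjusted p = 0.0558) or replicate 3 (adjusted p = 0.0523) and with replicate 1 alone (adjusted p = 0.0911). Its neighbor Trim30d shares 5.05% of the 72-base stretches of Trim30a, a stretch being as long as a read. Trim30d had 161, 0 and 0 counts in ZP3 Trim-away and 1, 40, 0 and 5 in Trim21 overexpression, so its pattern was unlike that of Trim30a, and the sum of the Trim30 genes did not pass (log2 fold change 5.41, adjusted p = 0.0923). Of the 8 blood and immune markers in the table, Ptprc, Lyz2, Cd79a and Hbb-bt were at 0 in every ZP3 Trim-away library, and the macrophage marker Cd68 had 0, 31.1 and 4.93 CPM there, against 9.87, 10.99, 9.46 and 5.72 CPM in Trim21 overexpression. Cd3e reached 2.17 CPM in ZP3 Trim-away replicate 3, and the hemoglobin genes Hba-a1 and Hba-a2 stayed at or below 4.21 CPM in this group. The part of blood and immune cells in the Trim30a value was not tested.

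RefSeq (GRCm38.p6) gives Trim30a more than 1 start site, and the upstream one is shown because the counts of this gene were nearly confined to ZP3 Trim-away. The window runs from 250 bases before the start to 50 after it, at chr7:104465144-104465443 on the minus strand. Capitals mark a CCAAT box and the core of an interferon response element (searched as CCAAT and GAAANNGAA on both strands), both of which stand here on the opposite strand.
Trim30a promoter: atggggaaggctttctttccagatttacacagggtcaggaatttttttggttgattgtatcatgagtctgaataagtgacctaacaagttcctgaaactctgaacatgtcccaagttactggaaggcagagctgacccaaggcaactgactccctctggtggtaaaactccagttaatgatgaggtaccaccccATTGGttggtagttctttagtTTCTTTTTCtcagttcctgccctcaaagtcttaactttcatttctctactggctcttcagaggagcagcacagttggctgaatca
The interferon core was present in 8.56% of the 32851 promoter windows of RefSeq and in 13 of 67 windows of TRIM members, and CCAAT in 37.4% of all windows and 31 of the 67. The window held no CG pair, where the median window held 7. A match is a description of letters only. Of 18 interferon-stimulated and sensing genes 10 could be tested. Of these, 0 were called by edgeR, DESeq2 or limma-voom. Over all 13641 genes tested edgeR called 6.9%, while DESeq2 called 2362 genes and limma-voom 1412. At an unadjusted edgeR p under 0.05 there were 0 of the 10, beside 2905 of the 13641 genes tested. The p was lowest for Ddx58 and Isg15. Ddx58, the RNA sensor RIG-I, had 69.1, 20.97 and 52.4 CPM in ZP3 Trim-away against 0, 0, 6.17 and 12.9 CPM in Trim21 overexpression (adjusted p = 0.357). Isg15, a ubiquitin-like modifier, had 20.8, 21.03 and 10.6 CPM against 0, 3.16, 5.15 and 2.89 CPM (adjusted p = 0.376). Both genes were above in each ZP3 Trim-away library. They did not pass by edgeR, while limma on log2(RPKM + 1) called both (adjusted p = 0.034 and 0.0288) and on log2(RPKM + 0.1) only Ddx58 (adjusted p = 0.0494). Of the 8 genes too low to be tested, named here after their values were seen, Ifit1 had 0.754, 0.391 and 8.08 CPM in ZP3 Trim-away and Usp18 had 0, 10.1 and 4.47 CPM, and both were at 0 in all 4 Trim21 overexpression libraries. Ifit3 and Rsad2 were at 0 in every library.

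Trim61, Trim60 and Trim75 lie close together on the minus strand of chromosome 8, with Trim61 inside the span of Trim60. They were among the 6 most abundant members per kilobase in ZP3 Trim-away. Trim61 (chr8:65012987-65018523) had 2083, 1024 and 1123 CPM in ZP3 Trim-away, against 571, 622, 801 and 560 CPM in Trim21 overexpression and 878 CPM in the non-manipulated library. The groups did not overlap, and the non-manipulated library lay above the Trim21 overexpression range and below the ZP3 Trim-away range. The means were 1410 ± 585 CPM (SD, n = 3) and 639 ± 111 CPM (SD, n = 4), and the gene rose by 1.15 on the log2 scale (SE 0.29, adjusted p = 0.0484 by edgeR). The call was lost when any 1 of the 7 libraries was left out (adjusted p of 0.0570 to 0.112), and with replicate 1 alone the adjusted p was 0.0146. Trim60 (chr8:64999307-65018584) had 475, 204 and 335 CPM in ZP3 Trim-away, against 2.34, 53.0, 87.9 and 29.7 CPM in Trim21 overexpression and 57.5 CPM in the non-manipulated library. Its groups did not overlap either, but the adjusted p was 0.0786 (log2 fold change 2.98, SE 0.88). Trim75 (chr8:64980884-64987831) had 607, 164 and 268 CPM against 154, 107, 281 and 85.8 CPM, with 168 CPM in the non-manipulated library, so its groups overlapped (log2 fold change 1.16, SE 0.52, adjusted p = 0.247). Replicate 1 was the highest ZP3 Trim-away library for all 3 genes.

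The 3 genes made up 71.5%, 49.2% and 56.0% of the CPM of the 68 members in ZP3 Trim-away, against 30.8%, 36.5%, 42.5% and 32.7% in Trim21 overexpression and 41.9% in the non-manipulated library. Trim61 alone made up 47.0%, 36.2% and 36.5% in ZP3 Trim-away, and 24.2%, 29.1%, 29.1% and 27.1% in Trim21 overexpression. Trim60 and Trim61 share 66 exon bases, and RefSeq starts them at the same position. Their common window is shown because the 2 genes differ in annotated exons but not in RefSeq start. It lies at chr8:65018639-65018938 on the minus strand with capitals at the CCAAT boxes, one on each strand.
Trim60 and Trim61 promoter: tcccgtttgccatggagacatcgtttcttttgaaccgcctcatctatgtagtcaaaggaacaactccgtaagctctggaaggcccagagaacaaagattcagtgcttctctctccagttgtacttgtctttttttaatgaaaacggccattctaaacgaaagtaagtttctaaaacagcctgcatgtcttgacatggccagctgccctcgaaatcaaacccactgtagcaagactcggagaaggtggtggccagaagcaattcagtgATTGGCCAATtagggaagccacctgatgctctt
This window held 8 CG pairs and neither TATAAA, which 13.6% of all windows and 8 of the 67 member windows held, nor the interferon core. Counted as 1 gene, Trim60 and Trim61 gave a log2 fold change of 1.37 (adjusted p = 0.0297), a sum chosen after seeing the data. The part of the shared exon in the values was not tested otherwise. Of the 9 oocyte and early embryo markers 4 rose (44.4%, beside 6.9% over all genes), as Nlrp4f with 3708, 2569 and 2282 CPM in ZP3 Trim-away against 201, 302, 440 and 238 CPM in Trim21 overexpression. Zp3, the transcript of the targeted protein, was below in each ZP3 Trim-away library, with 27.6, 54.9 and 56.9 CPM against 106, 143, 121 and 105 CPM, and did not pass (log2 fold change -1.36, adjusted p = 0.055), and the groups of Gdf9 and Npm2 overlapped. These markers are named after their values were seen. The part of oocyte transcripts in the Trim61 value was not tested.

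The Trim43 genes were all lower on average in ZP3 Trim-away, and 1 of the 3 passed the test. Summed over Trim43a, Trim43b and Trim43c, the level was 61.9, 218 and 156 CPM in ZP3 Trim-away, against 483, 371, 492 and 325 CPM in Trim21 overexpression and 446 CPM in the non-manipulated library. The genes are near-identical copies on chromosome 9, at chr9:88580891-88588819, chr9:89084624-89092835 and chr9:88839164-88848190, with coding sequences that agree at 96.6% to 98.0% of positions. The first 72 coding bases, the length of 1 read, are shown for the 3 genes to make this visible, with the only differing position in capitals (from the GENCODE M21 transcripts on GRCm38).
Trim43a: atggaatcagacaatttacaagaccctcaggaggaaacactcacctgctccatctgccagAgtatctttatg
Trim43b: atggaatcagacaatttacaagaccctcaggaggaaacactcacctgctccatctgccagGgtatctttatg
Trim43c: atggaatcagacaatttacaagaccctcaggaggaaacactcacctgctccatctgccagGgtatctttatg
Trim43b and Trim43c were identical over this stretch. In all, 29.7% of the 72-base stretches of Trim43a, 34.8% of Trim43b and 44.9% of Trim43c occur in another gene, and 38.6% of the exon bases of Trim43c lie under 9330159M07Rik on the other strand. How reads from such stretches were counted was not given in the sources used here, so the division between the 3 genes is uncertain.

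Trim43a had 15.7, 37.5 and 64.9 CPM in ZP3 Trim-away, against 124, 151, 201 and 151 CPM in Trim21 overexpression and 191 CPM in the non-manipulated library. The groups did not overlap and the non-manipulated library was within the Trim21 overexpression range. The means were 39.3 ± 24.6 CPM (SD, n = 3) and 157 ± 32.4 CPM (SD, n = 4), and Trim43a fell by 2.01 on the log2 scale (SE 0.47, adjusted p = 0.0388 by edgeR). Trim43b had 38.8, 131.4 and 74.9 CPM against 276, 197, 240 and 131.9 CPM, with 205 CPM in the non-manipulated library. Its highest ZP3 Trim-away library was just under its lowest Trim21 overexpression library, and it did not pass (log2 fold change -1.37, SE 0.44, adjusted p = 0.102). Trim43c had 7.46, 49.5 and 16.7 CPM against 82.9, 22.9, 51.5 and 41.5 CPM, with 49.9 CPM in the non-manipulated library. Its groups overlapped through ZP3 Trim-away replicate 2 (log2 fold change -1.02, SE 0.73, adjusted p = 0.502). Summed to 1 gene, the copies gave -1.53 with an adjusted p of 0.0551. The Trim43a call was lost without ZP3 Trim-away replicate 2 (adjusted p = 0.128), without any 1 Trim21 overexpression library (0.0688 to 0.0843) and without scaling beyond the total (0.0512). Replicate 1, which had Trim21 counts, was the lowest ZP3 Trim-away library for each of the 3 genes, and with it alone Trim43a had a log2 fold change of -3.32 (adjusted p = 0.0137) and Trim43b one of -2.44 (adjusted p = 0.0429).

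The Trim43 genes were set beside other genes of the 2-cell programme that Dux starts. Of 13 such genes tested, 0 were called by edgeR, beside 6.9% over all genes, and DESeq2 and limma-voom called 2 each. Over the 13641 genes tested DESeq2 called 2362 and limma-voom 1412. Of the 13 genes 2 had an unadjusted edgeR p under 0.05, beside 2905 of all genes tested. The median log2 fold change was 0.81, beside -0.04 over all genes. Zfp352 had 482, 678 and 728 CPM in ZP3 Trim-away, against 187, 305, 434 and 278 CPM in Trim21 overexpression and 205 CPM in the non-manipulated library (log2 fold change 1.06, adjusted p = 0.0662). Zscan4d, a gene of telomere maintenance, had 618, 473 and 581 CPM against 99.2, 326, 298 and 204 CPM (log2 fold change 1.27, adjusted p = 0.0775). The values of both were above in each ZP3 Trim-away library, while those of Trim43a and Trim43b were below.

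**Figure D3:**
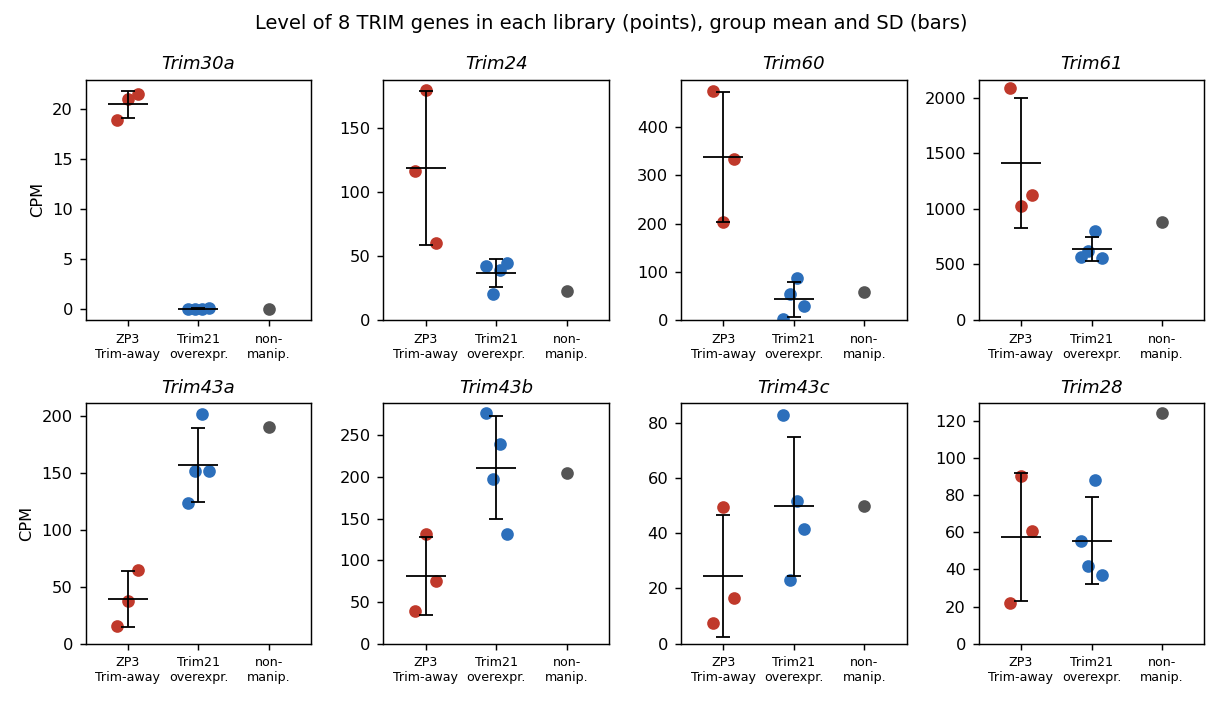
CPM of 8 TRIM genes in each library (points), with the mean and SD of the 3 ZP3 Trim-away and 4 Trim21 overexpression libraries (bars) and the single non-manipulated library to the right. Trim30a, Trim24, Trim60 and Trim61 lie higher and Trim43a and Trim43b lower in each ZP3 Trim-away library, and the Trim43c and Trim28 groups overlap.

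Among members with a PHD finger and a bromodomain, none was called. Trim28, the corepressor of KRAB zinc finger proteins (chr7:12999114-13031035), had 21.8, 90.3 and 60.8 CPM in ZP3 Trim-away, against 55.5, 41.6, 88.3 and 36.8 CPM in Trim21 overexpression and 124 CPM in the non-manipulated library. Both injected groups covered much the same range and the non-manipulated library lay above it. The log2 fold change was 0.05 with an interval of 2 SE from -1.04 to 1.14 (adjusted p = 0.981 by edgeR). This interval leaves room for changes of about that size in either direction, and a larger change could also have gone uncalled. The sign turned with the processing. Trim24, a transcription cofactor of nuclear receptors, had 117, 180 and 60.1 CPM against 42.0, 20.6, 39.3 and 44.8 CPM, with 23.0 CPM in the non-manipulated library. Its groups did not overlap, with an adjusted p of 0.0638 (log2 fold change 1.70, SE 0.47). Trim33, a regulator of SMAD signalling, had 28.7, 78.1 and 141 CPM against 147, 166, 153 and 107 CPM, with 129 CPM in the non-manipulated library (log2 fold change -0.80, adjusted p = 0.401). With ZP3 Trim-away replicate 1 alone it was -2.31 (adjusted p = 0.0319).

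Of 12 partners of TRIM28 in silencing, 0 were called by edgeR, beside 6.9% over all genes, while DESeq2 called 3 and limma-voom 1. Over the 13641 genes tested DESeq2 called 2362 and limma-voom 1412. Of the partners 4 had an unadjusted edgeR p under 0.05, beside 2905 of all genes tested. The median log2 fold change was 0.25, beside -0.04 over all genes. Atf7ip, which stabilizes the histone methyltransferase SETDB1, had 351, 355 and 271 CPM in ZP3 Trim-away against 115, 64.9, 181 and 154 CPM in Trim21 overexpression (log2 fold change 1.34, adjusted p = 0.055). Zfp57, the zinc finger protein that holds imprints, had 2795, 676 and 702 CPM against 235, 217, 575 and 299 CPM (log2 fold change 2.09, adjusted p = 0.0607). Replicate 1 carried much of this value, which was 1.03 without it (adjusted p = 0.201) and 3.08 with it alone (adjusted p = 0.0142). Neither gene's groups overlapped. Chd4 and Cbx5, next by p, did not overlap either but went in opposite directions. Their log2 fold changes were 1.86 for Chd4 (adjusted p = 0.119 by edgeR) and -1.02 for Cbx5 (adjusted p = 0.150 by edgeR).

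The remaining named members were those that averaged at least 10 CPM across the 7 injected libraries, and none of them passed. Trim13, a ligase anchored in the endoplasmic reticulum, was abundant and varied little, with 421, 315 and 268 CPM in ZP3 Trim-away against 247, 225, 232 and 289 CPM in Trim21 overexpression and 269 CPM in the non-manipulated library. Trim23, which carries a GTPase domain of the ARF type, had 147, 208 and 173 CPM against 215, 128, 154 and 184 CPM, with 110 CPM in the non-manipulated library. Trim37, mutated in Mulibrey nanism and active at centrosomes, had 180, 90.9 and 150 CPM against 128, 125, 188 and 97.0 CPM, with 143 CPM in the non-manipulated library. The groups of these 3 genes overlapped, with log2 fold changes of 0.44, 0.05 and 0.07.

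Trim59, a membrane protein of the endoplasmic reticulum, had 34.9, 49.5 and 24.9 CPM in ZP3 Trim-away against 60.5, 70.0, 52.4 and 80.5 CPM in Trim21 overexpression and 42.0 CPM in the non-manipulated library. Its injected groups did not overlap (log2 fold change -0.85, SE 0.42, adjusted p = 0.289). Trim36, a microtubule-associated member of the COS box class, had 17.8, 31.3 and 11.04 CPM against 9.50, 5.33, 7.14 and 4.69 CPM, with 4.80 CPM in the non-manipulated library. It was likewise separated, in the other direction (log2 fold change 1.59, SE 0.83, adjusted p = 0.326). Trim71, the homolog of the worm gene lin-41 and an RNA-binding protein of stem cells, had 16.6, 19.4 and 11.8 CPM against 43.9, 56.9, 43.4 and 18.7 CPM, with 40.7 CPM in the non-manipulated library. Trim6, in human cells a ligase of interferon signalling, had 4.69, 15.3 and 25.7 CPM against 42.5, 50.7, 25.4 and 40.2 CPM, with 39.8 CPM in the non-manipulated library. These 2 genes overlapped through 1 library each, Trim21 overexpression replicate 4 for Trim71 and ZP3 Trim-away replicate 3 for Trim6, with log2 fold changes of -1.34 and -1.40 (adjusted p = 0.228 and 0.288).

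The last 5 varied widely within groups. Trim44, which lacks the RING finger, had 44.4, 40.7 and 119 CPM in ZP3 Trim-away against 24.8, 8.68, 25.9 and 98.6 CPM in Trim21 overexpression and 77.8 CPM in the non-manipulated library. Trim15, a protein of focal adhesions, had 53.0, 9.51 and 10.9 CPM against 4.40, 7.03, 8.07 and 10.95 CPM, with 9.78 CPM in the non-manipulated library. Its high mean in ZP3 Trim-away came from replicate 1. Trim27, a transcriptional repressor, had 21.9, 3.52 and 29.8 CPM against 12.03, 0.189, 4.73 and 5.24 CPM, with 7.79 CPM in the non-manipulated library. Trim39, in human cells an inhibitor of the anaphase-promoting complex, had 13.7, 4.62 and 18.9 CPM against 18.5, 38.0, 0 and 9.45 CPM, with 0.476 CPM in the non-manipulated library. It thus lacked any count in Trim21 overexpression replicate 3. Trim41, a ligase that binds protein kinase C, had 7.20, 19.9 and 17.1 CPM against 6.18, 9.86, 18.6 and 1.44 CPM, with 0.260 CPM in the non-manipulated library. The log2 fold changes of these 5 genes lay between -0.40 and 1.72, with adjusted p between 0.336 and 0.935.

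**Figure D4:**
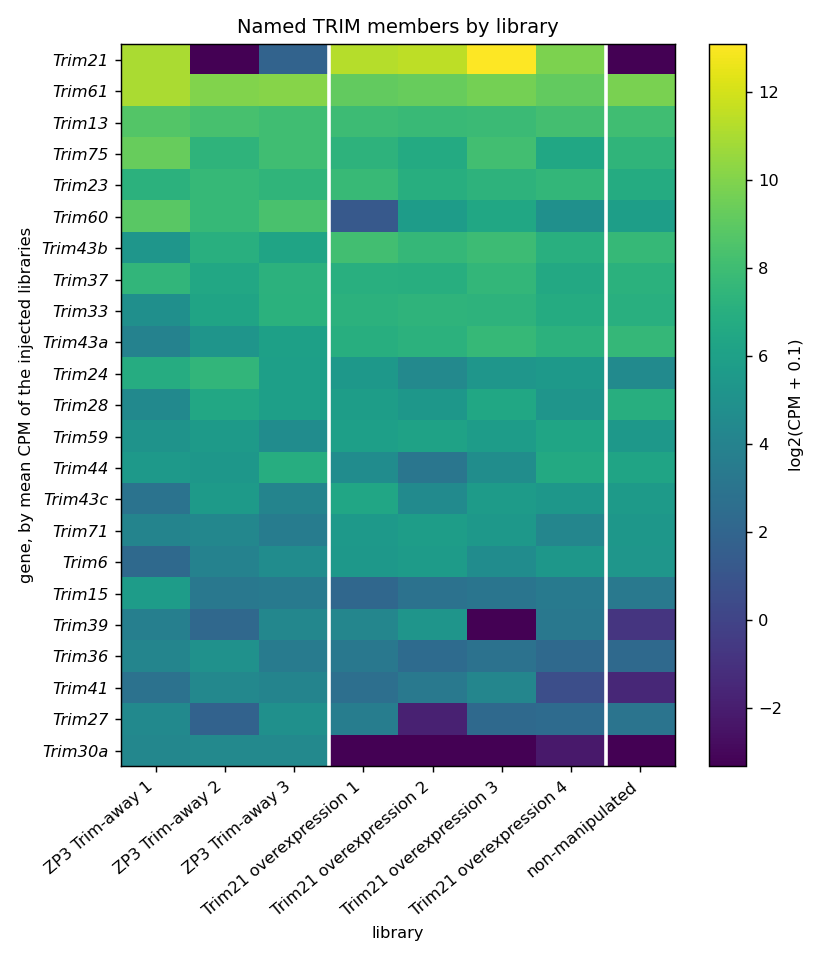
Level of the 23 named TRIM members in each library as log2(CPM + 0.1), ordered by the mean CPM of the 7 injected libraries, with ZP3 Trim-away to the left, then Trim21 overexpression and the non-manipulated library. Trim21 is dark in ZP3 Trim-away replicate 2 (0 CPM) and the non-manipulated library (0 CPM), and Trim30a is dark in every library outside ZP3 Trim-away.

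The other 8 tested members had log2 fold changes from -4.90 (Trim25) to 2.14 (Trim26), and adjusted p from 0.214 to 0.981. Of the 38 members that could not be tested, 12 had no count in any library and 26 had some, up to 13.5 CPM (Trim30d in ZP3 Trim-away replicate 1), and 7 members were counted in a single library. Trim25, a ligase of the RIG-I pathway, is named after its values were seen: it had 1.26, 0.0651 and 0.197 CPM in ZP3 Trim-away, against 39.6, 0.0472, 16.8 and 5.60 CPM in Trim21 overexpression and 32.6 CPM in the non-manipulated library. It was nearly absent from Trim21 overexpression replicate 2 as well, and its groups overlapped.

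By the C-terminal part, as assigned from general knowledge of the family, the 3 calls fell in 2 classes, and whether classes differ was not tested. Of the 37 members with a SPRY domain, the kind TRIM21 has, 15 were tested, with 1 higher (Trim30a), 1 lower (Trim43a) and 13 not called, and a median log2 fold change of -0.40. Of the 13 with another C-terminal part, 8 were tested, with Trim61 higher and 7 not called, and a median of 0.06. Of 8 members with a COS box, which binds microtubules, 3 were tested, of 4 with a PHD finger and bromodomain 3, and of 4 with NHL repeats 1 (Trim71), and none of these was called. The remaining 2 members were not assigned to a class and were not tested.

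Levels were compared between genes as CPM per kilobase of exon. In ZP3 Trim-away the order of mean levels was Trim61 (712 ± 295), Trim13 (203 ± 47.5), Trim21 (186 ± 322), Trim60 (126 ± 50.7), Trim75 (99.4 ± 66.4) and Trim43b (36.1 ± 20.6; SD, n = 3). In Trim21 overexpression it was Trim21 (996 ± 920), Trim61 (323 ± 56.2), Trim13 (150 ± 17.5), Trim43b (93.4 ± 27.4), Trim43a (79.1 ± 16.3) and Trim75 (45.0 ± 25.1; SD, n = 4). Neighbors in this order from Trim13 to Trim43b in ZP3 Trim-away, and Trim21 and Trim61 as well as Trim43b and Trim43a in Trim21 overexpression, differed by less than the larger of their SDs. Trim60 ranked 4th in ZP3 Trim-away and 11th in Trim21 overexpression.

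The non-manipulated library, a single one with no test, showed how the members stood without injection. It lay outside the range of the 4 Trim21 overexpression libraries for 7 of the 30 tested members besides Trim21 (23.3%), while over all genes tested it did so for 37.7%. Trim28 and Trim61 were above that range, and Trim8, Trim23, Trim41, Trim59 and Trim67 below it. Of the 3 members called between the injected groups, Trim30a and Trim43a were within it.

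Relatives of the family under other symbols and the route by which TRIM21 degrades its targets were read from the same fit. Of 8 relatives, 5 were tested and 1 rose (20%, where 6.9% of all genes were called, 2.98% higher), Rfpl4, a RING and SPRY protein of oocytes. It had 1677, 739 and 672 CPM in ZP3 Trim-away, against 219, 240, 257 and 342 CPM in Trim21 overexpression and 152 CPM in the non-manipulated library (log2 fold change 1.97, SE 0.36, adjusted p = 0.0155 by edgeR). The groups did not overlap, and the call was lost without Trim21 overexpression replicate 1 or 2. Triml2 had 22.1, 19.3 and 18.1 CPM against 105, 64.5, 32.3 and 31.0 CPM, with 4.33 CPM in the non-manipulated library, and did not pass (log2 fold change -1.55, adjusted p = 0.148). Of 12 genes of the degradation route 1 fell (8.33%, near the 6.9% called over all genes, with 3.91% lower), Psmd14, the deubiquitinase of the proteasome lid. It had 12.98, 73.4 and 110 CPM in ZP3 Trim-away, against 393, 347, 417 and 432 CPM in Trim21 overexpression and 529 CPM in the non-manipulated library, and fell by 2.62 on the log2 scale (SE 0.60, adjusted p = 0.0347 by edgeR). All ZP3 Trim-away libraries were far below the rest, with replicate 1 the lowest, and the call was lost without ZP3 Trim-away replicate 2 or any 1 Trim21 overexpression library (adjusted p up to 0.138 over all alternatives).

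Among the rest of the route, Ubb, a polyubiquitin gene, had 3060.3, 2385 and 2117 CPM in ZP3 Trim-away against 1629.5, 1636.5, 1721 and 1795 CPM in Trim21 overexpression (adjusted p = 0.121). Ube2v2, a cofactor for building K63-linked ubiquitin chains, had 24.6, 39.7 and 36.5 CPM against 69.4, 53.1, 74.4 and 123 CPM (adjusted p = 0.129). The groups of these 2 genes did not overlap, and neither passed by edgeR, while DESeq2 called both (adjusted p = 0.0341 for Ubb and 0.0353 for Ube2v2). Over the 12 genes of the route, 6 had an unadjusted edgeR p under 0.05, beside 2905 of the 13641 genes tested. DESeq2 called 3 of the 12 and limma-voom 2, beside 2362 and 1412 of all genes tested.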

How the data were processed

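RNA-seq counts were analysed for 8 libraries of mouse embryos (3 ZP3 Trim-away, 4 Trim21 overexpression, 1 non-manipulated). Per the paper's methods and the submitters' processing notes, the authors ran FastQC 0.11.9 and Trimmomatic on single reads, placed them on GRCm38 using Hisat2 and made counts per Ensembl gene using htseq-count, whose strand setting was not given in the sources used here. Deposited counts were taken as they stand, and deposited RPKM columns were not used here. Genes were filtered with filterByExpr, scaled by TMM and tested with edgeR 4.0.16 (limma 3.58.1, R 4.3.3; group as the only term; Benjamini-Hochberg adjustment at 0.05), checked on simulated data. DESeq2 1.42.0, limma on voom weights and on RPKM recomputed from counts and gene width, other scalings and filters, summed copies, a replicate block and leaving out libraries were alternatives. Symbols, exons and shared stretches came from GENCODE M21, and promoters from RefSeq for 53 members. Figures used matplotlib 3.10.9 (Python 3.11.15). Named with values in every library were Trim21, Trim28, the Trim43 genes, members passing the test and members averaging at least 10 CPM across the 7 injected libraries; from the lists, up to 4 genes with the smallest p. Members and lists were chosen with earlier results of these data known. Total counts per library were 13228428 to 22427747, so 3 counts correspond to 0.127 to 0.251 CPM; the common biological coefficient of variation was 1.16, which limits what could be called.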

Additional observations from a re-analysis of the deposited data

Results flagged for a closer look

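In groups of 4 libraries, the 23 named members were searched for a single library far from the others, which chance alone gives in about 1 of 20 groups. In Trim21 overexpression replicate 2, Trim24 was at 20.6 CPM, while the other 3 libraries were at 39.3 to 44.8 CPM. In Trim21 overexpression replicate 4, Trim30a was at 0.120 CPM (2 counts), while the other 3 had none. With the other 3 alike, any count would have been flagged, so the rate of 1 of 20 does not hold there.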

How the results depend on the processing

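With DESeq2, 2362 genes over all and 7 members were called (Trim24, Trim25, Trim30a, Trim43a, Trim43b, Trim60 and Trim61), beside 941 and 3 by edgeR; limma called 1412 genes with voom weights and 1567 on log2(RPKM + 1). Summing near-identical copies left 1 member called (Trim61). Same-numbered libraries did not deviate together (r of -0.061, 0.0066 and -0.00065), and a replicate block called 0 genes and 0 members by edgeR (2050 and 7 at an unadjusted p under 0.05). Leaving out 1 library gave 408 to 694 genes and 0 to 2 members; the 0 was without ZP3 Trim-away replicate 2 (9 at an unadjusted p under 0.05). Of the genes called, 43.3% were higher, against 32.3% on log2(RPKM + 0.1), 32.0% without ZP3 Trim-away replicate 1 and 23.8% with it alone.

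Log2 fold changes that turned sign were all of members not called, and the cause was not tested. Trim28 was at -0.037 (voom), -0.14 and -0.099 (RPKM + 0.1 and + 1), -1.34 (ZP3 Trim-away replicate 1 alone) and -0.26 (block). Trim37 was at -0.014 (no scaling), -0.0014 (voom), -0.0066 and -0.0050 (RPKM + 0.1 and + 1) and -0.084 (block). Trim39 was at 1.81 (voom), 0.22 (RPKM + 0.1) and 0.18 (block). With ZP3 Trim-away replicate 1 alone, Trim23 was at -0.20 and Trim41 at -0.31. Leaving out 1 library gave -0.42 to 0.43 for Trim28, -0.18 to 0.31 for Trim37, -0.83 to 0.41 for Trim39 and -0.078 to 0.18 for Trim23. With a common coefficient of variation of 1.16, small changes stay below what 3 against 4 libraries can show.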
